A study of Mus musculus with 46 samples.

Results

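Acetylation of histone H3 at lysine 27 (H3K27ac) was compared between cycling and non-cycling microglia of mice on a cuprizone diet. Microglia are the resident macrophages of the brain. Cuprizone is a copper chelator that is toxic to oligodendrocytes, and feeding it is a standard model of demyelination in which microglia multiply and clear myelin. The 4 region lists of the comparison, 2 from Ki67-positive and 2 from Ki67-negative cells, were merged wherever they shared at least 1 bp. The union held 34014 regions, out of 40726 in the union of all 12 H3K27ac lists of the series. A region was assigned to the gene with the nearest transcription start, and 9713 regions lay within 1000 bp of a start and are called promoter regions.

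Both groups were wild-type C57BL/6 males aged 90 days that had received cuprizone for 4 weeks before sacrifice, so the groups share the diet and differ in the Ki67 sort. Per the labels, CD11b, CD45 and CD44 were used to label the cells, which were fixed, made permeable, stained with an antibody to Ki67 and sorted. Brains were processed on ice in the presence of butyrate, an inhibitor of histone deacetylases, and flavopiridol, an inhibitor of transcription, and these agents were common to both groups. The labels do not say whether the replicates of a group came from separate animals, so the spread between them may be technical. The wider study also profiled untreated adults, pups at postnatal day 8 (PND8) sorted by Ki67, and microglia that repopulated the brain after depletion with PLX5622, an inhibitor of the CSF1 receptor, over 17 days followed by 3 days of recovery. RNA was measured in adults, at PND8 and in repopulation, the last 2 in Ki67-RFP reporter mice, and no RNA of cuprizone-fed mice is described in the labels. Per the labels, the mice of all H3K27ac groups and the adults of every assay were C57 males, and the reporter mice were males. For H3K27ac, the adult replicates were aged 60 and 65 days and the repopulation mice 90 days. For RNA, adults were 90 and repopulation mice 75 days old. The adult H3K4me3 mice were 75 days old, and open chromatin was measured in adults at 80 days and in reporter mice at PND8 and, in repopulation, at 75 days.

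H3K27ac is deposited at active promoters and enhancers, and its signal broadly follows the activity of the nearby gene. Ki67 is a nuclear protein made by cells in the division cycle and absent from resting cells, so that sorting on it separates the 2 states within a tissue. Genes for DNA synthesis are switched on ahead of S phase mainly by E2F factors, whereas genes for mitosis are switched on later by complexes of MuvB with B-MYB and FOXM1, which act through the CHR element and nearby CCAAT boxes.

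Promoter sequences of 6 cell cycle genes are shown because promoters of the cell cycle lists had the highest medians of the comparison. Each is the 250 bases before the RefSeq start on GRCm38.p6, written 5′ to 3′ in the direction of transcription. Capitals mark matches, on either strand, to the CCAAT box (CCAAT), the CHR (TTTGAA or TTCGAA) and the E2F site (TTTGGCGC, TTTCCCGC, TTTCGCGC or TTTGCCGC). Mki67 encodes Ki67 itself, Cdk1 the kinase that drives mitosis, Hjurp the chaperone of the centromeric histone, Ccnb2 a mitotic cyclin, Kif23 a motor of the midbody and E2f2 a transcription factor of the cell cycle. The stretches lie at chr7:135716380-135716629 on the minus strand, chr10:69352913-69353162 on the minus strand, chr1:88277580-88277829 on the minus strand, chr9:70421555-70421804 on the minus strand, chr9:61946800-61947049 on the minus strand and chr4:136172024-136172273 on the plus strand.
Mki67: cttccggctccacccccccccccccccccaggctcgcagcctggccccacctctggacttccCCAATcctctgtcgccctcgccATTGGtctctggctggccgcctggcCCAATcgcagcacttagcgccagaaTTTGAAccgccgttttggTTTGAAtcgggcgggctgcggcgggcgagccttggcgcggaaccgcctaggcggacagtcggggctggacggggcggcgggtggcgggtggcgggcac
Cdk1: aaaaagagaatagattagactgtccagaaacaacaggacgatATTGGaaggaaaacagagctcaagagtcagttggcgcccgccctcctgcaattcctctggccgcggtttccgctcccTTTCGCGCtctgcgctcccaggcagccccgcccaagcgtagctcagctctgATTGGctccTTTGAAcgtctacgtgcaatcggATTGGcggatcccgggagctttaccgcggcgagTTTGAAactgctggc
Hjurp: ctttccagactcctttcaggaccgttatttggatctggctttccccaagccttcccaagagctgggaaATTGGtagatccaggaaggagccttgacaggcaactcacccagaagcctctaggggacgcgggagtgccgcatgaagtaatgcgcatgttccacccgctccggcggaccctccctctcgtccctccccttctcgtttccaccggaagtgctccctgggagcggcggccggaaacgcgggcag
Ccnb2: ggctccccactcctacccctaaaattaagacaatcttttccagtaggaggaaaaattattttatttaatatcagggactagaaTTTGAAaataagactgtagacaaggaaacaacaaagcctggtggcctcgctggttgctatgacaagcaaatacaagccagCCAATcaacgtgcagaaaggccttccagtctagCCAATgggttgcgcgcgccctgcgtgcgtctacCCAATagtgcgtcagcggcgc
Kif23: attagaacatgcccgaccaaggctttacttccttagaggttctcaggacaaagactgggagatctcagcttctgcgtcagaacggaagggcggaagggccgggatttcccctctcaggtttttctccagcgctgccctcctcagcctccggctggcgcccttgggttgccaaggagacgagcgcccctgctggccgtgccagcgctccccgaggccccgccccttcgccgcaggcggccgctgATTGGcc
E2f2: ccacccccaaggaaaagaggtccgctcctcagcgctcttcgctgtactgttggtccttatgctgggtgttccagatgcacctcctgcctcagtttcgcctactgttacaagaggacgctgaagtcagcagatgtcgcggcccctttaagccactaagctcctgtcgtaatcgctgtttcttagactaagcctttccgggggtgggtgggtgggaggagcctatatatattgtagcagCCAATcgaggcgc

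In the Mki67 stretch, the nearer of 2 CHR matches lay at 93 to 98 bases before the start, with 3 CCAAT matches farther upstream. Cdk1 held 3 CCAAT matches, 2 CHR matches and 1 E2F match (TTTCGCGC, at 124 to 131 bases before the start). Ccnb2 held 3 CCAAT matches at 17 to 21, 50 to 54 and 83 to 87 bases and a CHR match at 162 to 167 bases. Hjurp, Kif23 and E2f2 each held 1 CCAAT match in these bases, Kif23 and E2f2 within 13 bases of the start. In the wider window of 300 bases, which runs to 50 after the start, Hjurp and Kif23 also held 1 CHR match each. In that window E2f2 held 1 E2F match and Ccnb2 2 CHR matches. A match is a description of the letters and says nothing of binding.

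Depth differed little among the 4 libraries, except that Ki67-positive 1 was the shallowest, with 20011796 and 19815561 tags in the Ki67-negative libraries, replicates 1 and 2, and 15233543 and 18963261 in the Ki67-positive ones. Values are the tag counts of the deposited regions scaled to 10000000 tags per library and summed over each union region, and they are given below in the order Ki67-negative 1, Ki67-negative 2, Ki67-positive 1, Ki67-positive 2. The lists held 24082, 30539, 25108 and 30283 regions, and 56.3%, 69.7%, 51.9% and 65.3% of tags lay in them. Replicate 2 of each group therefore had more called regions than replicate 1 of either group. The same split is carried by a numeric code in the file headers that the labels do not explain: both replicates 1 share a code and both replicates 2 share another. Since the code can mark a batch, the difference was also computed within each code and in a fit that included it.

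The sort labels were checked at Mki67 first. Its promoter region, chr7:135714932-135717326, was not called in Ki67-negative replicate 1 and held 67.6 tags in Ki67-negative 2, 142.4 in Ki67-positive 1 and 260.0 in Ki67-positive 2. Both Ki67-positive libraries lay above both Ki67-negative ones. At PND8 the same region held 117.3 and 131.5 tags in Ki67-negative and 309.7 and 332.2 in Ki67-positive cells, and it was called in neither adult list.

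Microglial markers carried strong regions in all 4 libraries. Of 10 microglial markers 9 had a promoter region, with summed signal of 11603.7, 11499.5, 9320.3 and 10478.3, and only Aif1 had none. None of the neuronal, monocyte or neutrophil, or lymphocyte markers had one. Of 11 oligodendrocyte lineage markers, Mbp, Mog, Cnp and Cspg4 had a region (summed 431.3, 677.8, 377.5 and 912.3), while the markers without one included Mag, Mobp, Pdgfra, Olig1, Olig2 and Sox10. Cspg4 held 27, 158.0, 35.4 and 487.8, higher in replicate 2 of each group and, within each replicate, higher in the Ki67-positive library. Astrocyte markers had 1 region of 6 genes (Slc1a3; 91.9, 102.9, 93.9 and 88.6), endothelial markers 3 of 6 (311.9, 473.4, 321 and 490.9) and border macrophage markers 3 of 7 (53.5, 75.2, 28.2 and 51.1). The part of these cells in the results below was not tested. In bulk chromatin, more cells carrying a mark and more mark per cell cannot be told apart.

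More regions were called in both replicates 2 only than in both libraries of either sort only, and this split by replicate was one-sided. All 4 lists shared 20323 regions, or 59.7% of the union. A further 2336 were called in both replicates 2, which had the longer lists, and in neither replicate 1. Only 55 were called in both replicates 1 and in neither replicate 2. Only 538 (1.58% of the union) were called in both Ki67-positive libraries and neither Ki67-negative one, and 619 (1.82%) showed the opposite pattern. With Ki67-negative replicate 2 left out the first count was 3056, with Ki67-positive replicate 1 left out 2771 and with Ki67-positive replicate 2 left out 933. The second was 2791 without Ki67-negative 1, 1021 without Ki67-negative 2 and 2270 without Ki67-positive 2.

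**Figure D1:**
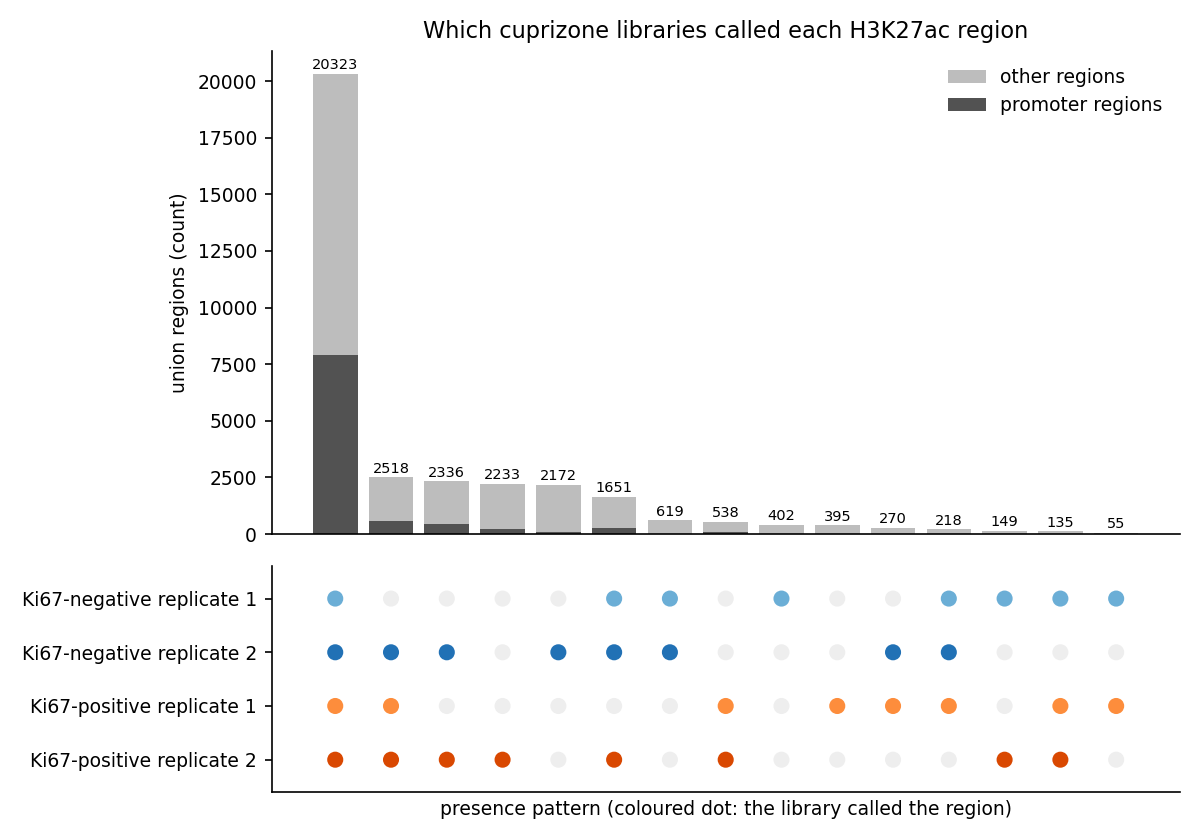
Number of union regions (bars, vertical axis; the dark part is promoter regions) for each pattern of calls among the 4 libraries (dots below). The tallest bar is the 20323 regions that all 4 libraries called. The patterns of both positive only (538) and both negative only (619) are small beside that of both replicates 2 only (2336), and both replicates 1 only held 55.

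The positive-only and negative-only regions were alike in size and strength but differed in place. Their median widths were 932.5 and 927 bp and their median signal 27.9 and 26.2 tags, far below the 186.6 of regions called in all 4 lists. Promoter regions made up 81 of the 538 positive-only regions (15.1%) and 12 of the 619 negative-only regions (1.94%), or 0.834% and 0.124% of all 9713 promoter regions. The 81 included promoters of genes that act in mitosis and cytokinesis, among them Racgap1 and Cit (cytokinesis), Kif23, Nek2 (a centrosome kinase), Aspm (spindle poles), Ccnb2, Cdc25c (the phosphatase that activates Cdk1) and Melk, and of Chaf1a, a chromatin assembly factor of replication. The 12 included Gstm4, Src, Stag3 and Ccl17. These examples were chosen after the lists had been seen, except Kif23, Nek2, Ccnb2 and Cdc25c, which belong to the G2/M list below.

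Lists from other groups, which played no part in the choice, held different shares of the 2 sets in adults and in repopulation. Untreated adults, in the 2 lists, had called 4.28% and 11.5% of the positive-only regions against 23.3% and 60.4% of the negative-only regions and 54.5% and 69.3% of the whole union. Repopulating Ki67-positive microglia had called 59.1% and 49.3% of the positive-only against 38.3% and 28.6% of the negative-only regions and 79.4% and 72% of the union. The Ki67-positive PND8 lists held similar shares of both sets (39.4% and 54.1% against 39.3% and 53.6%), and the Ki67-negative PND8 lists held 33.1% and 38.5% against 52.8% and 58.8%. Of the union they held 72.5% and 79.1% (Ki67-positive) and 73.6% and 77.0% (Ki67-negative). H3K4me3 is a mark of promoters. Both of its adult lists overlapped 24.5% of the positive-only and 5.98% of the negative-only regions, and 40.4% of the union. Open chromatin came from a single library per context. It overlapped 58.7% of the positive-only, 73.3% of the negative-only and 84.7% of all union regions in adults. The shares were 74.7%, 69.3% and 88.3% in repopulation, and 63.2%, 60.4% and 82.3% in Ki67-positive cells at PND8. Both sets were thus below the union in every list given here.

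Among the regions of a single group, those with most signal often turned out to be pieces of wider domains. The strongest positive-only region, chr1:180352967-180354737 inside Itpkb, held 253.4 and 320.6 tags. Itpkb encodes a kinase of inositol trisphosphate, and the region lies 22491 bp from its start. It was still positive-only when regions up to 1000 bp apart were joined, but its nearest neighbouring region lay 1028 bp away, just past that limit. The next positive-only regions lay at Oacyl (193.0 and 378.1), Laptm5, a lysosomal membrane protein (182.5 and 374.4), the Gcnt2 promoter (203.5 and 342.8) and Rubcnl (185.1 and 321.7), and all 4 were called in every library after joining. The joined Laptm5 domain, for instance, held 1366.2, 1470.6, 1359.5 and 1812.4, with the groups overlapping. The joined regions separated the groups at Oacyl (74.5, 125.7, 323.6 and 525.2) and at Gcnt2 (778.0, 820.6, 981.4 and 1242.4). Each joined sum includes the piece chosen because only Ki67-positive lists called it. A gap between the groups is therefore partly fixed by that choice, and the rest of each domain was not compared alone.

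The strongest negative-only region lay 2828 bp from the start of Cx3cr1, the fractalkine receptor of microglia, with 298.3 and 282.1 tags. After joining it was part of a domain with 2623.9, 2338.0, 1621.4 and 1760.8 tags, both Ki67-positive libraries being below both Ki67-negative ones. A region 6836 bp from Tmem119, a marker of microglia, held 192.9 and 172.6 and, joined, 365.3, 301.3, 170.7 and 222.0. Regions inside Tbc1d10a (296.8 and 143.8) and Otulinl (148.9 and 226.6) stayed negative-only. The region near Rcan3 (221.4 and 133.2) joined to 471.8, 430.4, 321.0 and 281.6. The joined sums here likewise include the chosen pieces, so their lower Ki67-positive values are partly fixed by the choice.

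For the 20323 regions called in all 4 libraries the signal itself could be compared. No region passed an adjusted p of 0.05 (limma, 0.0% in each direction), the smallest adjusted p being 0.110, and 3348 had an unadjusted p under 0.05. edgeR on whole tags also called 0, with 3228 at an unadjusted p under 0.05, and DESeq2 on whole tags called 382 higher and 215 lower (1.88% and 1.06%). When the header code was added to the model, limma called 1011 regions higher in Ki67-positive cells (4.97%) and 1681 lower (8.27%). Groups did not overlap on the centred scale for 4294 regions in the higher direction (21.1%) and 5578 in the lower (27.4%). Leaving out a single library also gave calls: 210 without Ki67-negative 1, 2087 without Ki67-negative 2, 205 without Ki67-positive 1 and 364 without Ki67-positive 2, where the lone library is assumed to vary like the pair.

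The differences within the 2 codes were alike in direction. Of 20323 regions, 15003 had the same sign in both, 6248 of them higher and 8755 lower in Ki67-positive cells, and the Pearson correlation between the codes was 0.61 across regions, which share their libraries and are not independent. Libraries also deviated by replicate: the correlation between the replicate differences of the groups was 0.43.

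**Figure D2:**
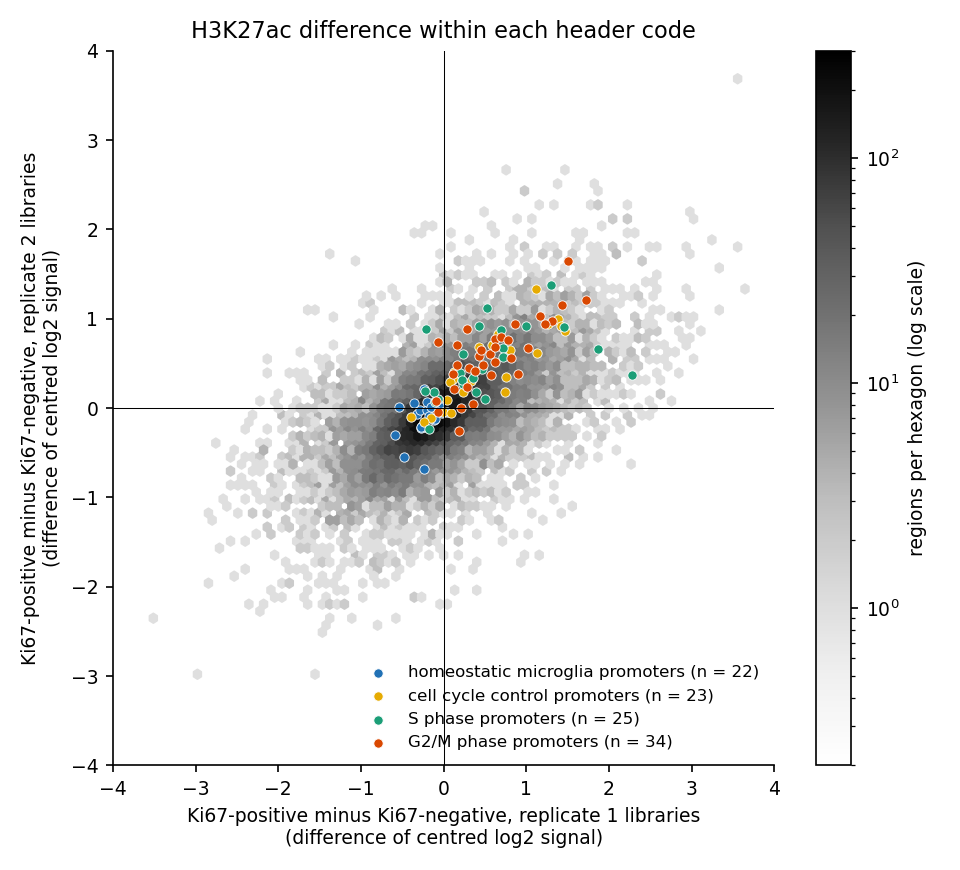
Each hexagon counts regions by their difference, Ki67-positive minus Ki67-negative, in the replicate 1 libraries (horizontal axis) and in the replicate 2 libraries (vertical axis), both as centred log2 signal, and coloured points are promoters of 4 gene lists. The cloud is stretched along the diagonal (Pearson 0.61 over 20323 regions).

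The 5 regions with the lowest p in the higher direction are given as a description, all at an adjusted p of 0.110 by limma and 0.013 with the code term. A region 6135 bp from Ercc1, a subunit of a DNA repair nuclease, held 12, 16.7, 149.0 and 214.6 tags, a log2 difference of 3.59 (SE 0.35). It had been called in both repopulation lists (98.0 and 127.3) but in no adult or PND8 list. A region inside Ppp3cc, a calcineurin subunit, held 59.0, 96.4, 269.8 and 420.3 (log2 difference 2.17, SE 0.23). The promoter of Fbxo48, an F-box protein gene, held 69.0, 97.4, 222.5 and 364.4 (1.81, SE 0.22). In each of the 3, both Ki67-positive libraries exceeded both Ki67-negative ones. Regions inside Cdk19, a kinase of the Mediator complex (59.5, 82.3, 210.1 and 260.0), and 342866 bp from Bmper (107.9, 160.5, 336.8 and 383.9) completed the 5. Whether these regions passed thus depended on the fit.

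In the lower direction the region with the lowest p lay inside Ehd4, an endocytosis gene, with 231.4, 337.1, 72.2 and 74.4 tags (log2 difference -1.89, SE 0.23). A region inside Gabarapl2, an autophagy gene, held 193.4, 173.6, 15.8 and 33.2 (-2.92, SE 0.38). The promoter of Tmem204 held 557.2, 453.2, 132.0 and 168.2 (-1.72, SE 0.24). Tmem204 was also the only one of these 10 genes whose RNA changed in Ki67-positive cells elsewhere, with log2 differences of -1.51 at PND8 (edgeR, adjusted p 0.0023) and -1.14 in repopulation (adjusted p 0.049). Regions near Cd14, a co-receptor for lipopolysaccharide (224.9, 282.6, 72.2 and 65.9), and Rtf2, a replication termination factor (130.4, 165.0, 30.9 and 35.3), were also lower in both Ki67-positive libraries. All 5 had an adjusted p of 0.110 by limma.

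Promoters of mitotic genes had the highest median of the 12 gene lists described. Of 56 G2/M genes with a promoter region in the union, 34 were called in all 4 libraries, 12 in all but Ki67-negative 1, and 4 (Ccnb2, Cdc25c, Kif23 and Nek2) in both Ki67-positive libraries only. The libraries called 36, 49, 50 and 56 of the 56, beside 8233, 9349, 8637 and 9573 of all 9713 promoter regions. Of those 9713, 7927 were called in all 4 libraries, 594 in all but Ki67-negative 1 and 81 in both Ki67-positive libraries only. Over the 34 that could be compared, the median log2 difference was 0.56, and 31 were above 0. The median over all 7927 promoter regions tested was -0.01, with 48.2% above 0. With the header code as a term 20 of the 34 were called higher and 0 lower, beside 3.49% and 3.63% of all promoter regions tested. Those shares are the background for each list below. Groups did not overlap in the higher direction for 27 of the 34 (20.9% of all promoter regions tested; 21.8% in the lower direction).

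Cdk1 held 92.4, 171.6, 248.8 and 372.3 tags, with a log2 difference of 1.29 (SE 0.23). Its adjusted p was 0.110 by limma and 0.013 with the code term. Both Ki67-positive libraries lay above both Ki67-negative ones. Hjurp, whose region also covers the start of A730008H23Rik, held 169.4, 299.8, 418.2 and 573.7 (1.14, SE 0.19). The largest differences of the list were at weak regions, Ckap2, a spindle protein gene (21.0, 28.8, 61.0 and 90.2; 1.58, SE 0.38), and Cdc25b, a phosphatase that activates Cdk1 (19.0, 39.4, 64.3 and 90.2; 1.47, SE 0.40). At the stronger promoters of Aurkb, a kinase of the chromosomal passenger complex (259.8, 311.9, 396.5 and 489.9; 0.65, SE 0.16), and Kif11, a spindle motor (433.2, 442.6, 529.8 and 588.5; 0.37, SE 0.18), the groups also did not overlap.

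Other G2/M promoters were too weak to be called everywhere or did not separate. Top2a, the topoisomerase that untangles chromosomes, was not called in Ki67-negative 1 and held 21.2, 44.6 and 109.2 in the others. Ccnb1, the main mitotic cyclin, was called only in Ki67-positive 2, at 48.0. The positive-only promoters of Kif23 (59.1 and 114.4), Nek2 (40.0 and 73.3) and Ccnb2 (32.8 and 57.5) were likewise lower in Ki67-positive 1 than in 2. At Jpt1 (616.1, 749.9, 582.3 and 707.7) and Lbr, the lamin B receptor gene (110.4, 241.7, 124.7 and 197.8), the groups overlapped.

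**Figure D3:**
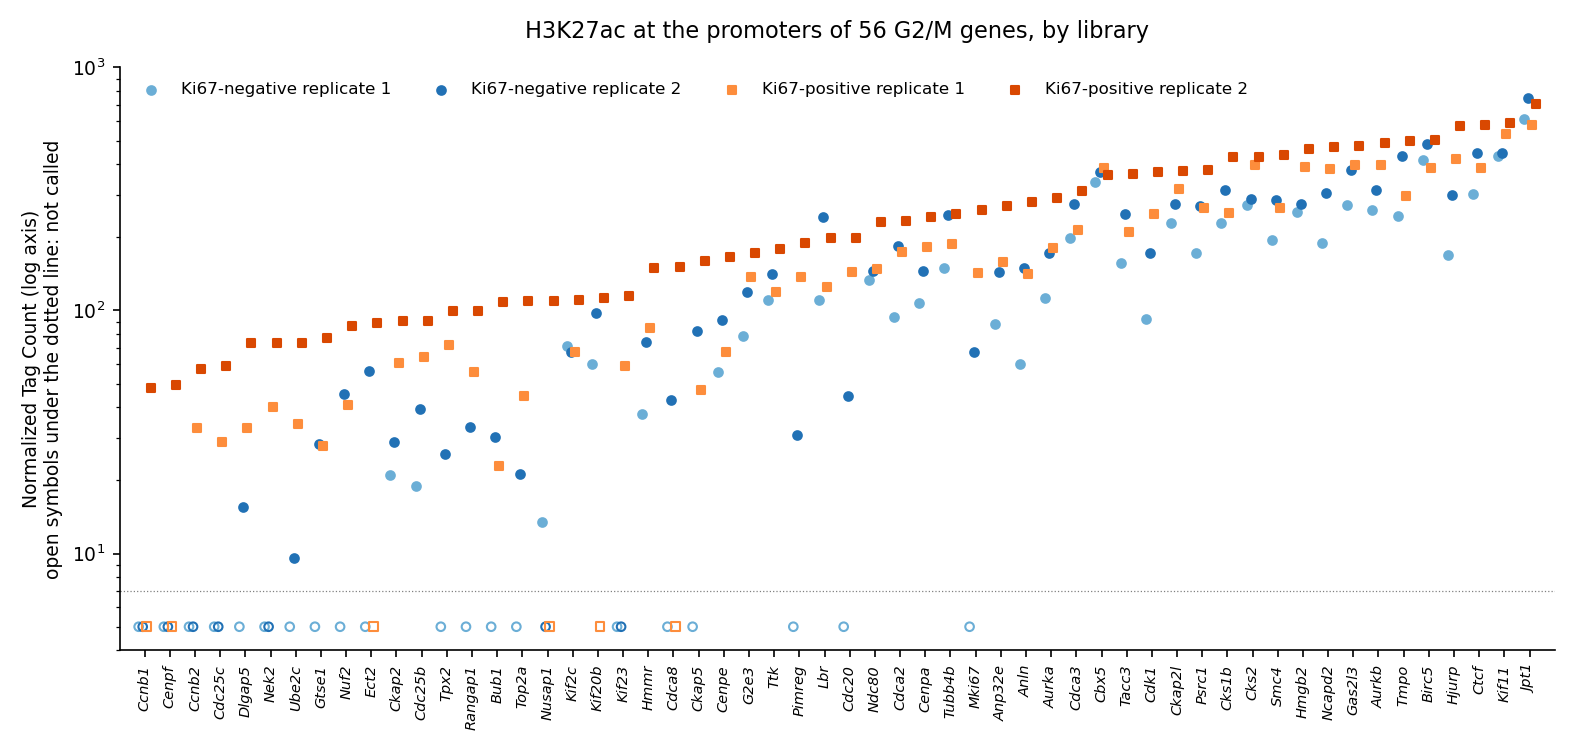
H3K27ac signal (normalised tags, log axis) at the promoter regions of 56 G2/M genes, 1 column per gene and 1 symbol per library, with open symbols under the dotted line for a library that did not call the region. For 27 of the 34 genes called in all 4 libraries the Ki67-positive and Ki67-negative libraries do not overlap on the centred scale, and all 4 of the positive-only promoters are weak.

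Promoters of the DNA synthesis list were shifted less. Over the 25 S phase promoters called in all 4 libraries the median was 0.35, 21 were above 0, 15 did not overlap in the higher direction, and 4 were called higher with the code term (Dtl, Rpa2, Gmnn and Blm) and 0 lower. Gmnn, the inhibitor of replication licensing geminin, held 54.0, 101.9, 133.3 and 258.9 (1.34, SE 0.30). The list median ranged from 0.28 without Ki67-negative 1 to 0.54 without Ki67-positive 1. Mcm4, a subunit of the replicative helicase, held 23.5, 116.1, 116.8 and 147.1 (1.33, SE 0.54), so only Ki67-negative 1 stood apart. Pcna, the sliding clamp of replication, held 245.4, 269.0, 225.2 and 277.4, and the groups overlapped. Slbp, which binds histone mRNA, lay on the other side with 352.3, 389.1, 309.2 and 322.2 (-0.20, SE 0.18). Mcm5 was not called in Ki67-negative 1 and held 68.6, 79.4 and 94.9 elsewhere.

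Of 23 promoters of cell cycle regulators, 19 were above 0, with a median of 0.46, 15 did not overlap in the higher direction, and 8 were called higher with the code term and 0 lower. They include both activators and inhibitors. E2f2 held 124.9, 178.1, 269.8 and 438.7 (1.23, SE 0.19) and E2f1, a second activating E2F, 120.4, 240.7, 288.2 and 453.5 (1.11, SE 0.24). Cdkn1a, which encodes the inhibitor p21, held 161.4, 244.8, 418.8 and 477.8 (1.19, SE 0.17), and Cdkn2d, a further inhibitor, 370.8, 525.4, 580.3 and 909.7 (0.74, SE 0.17). In all of these both Ki67-positive libraries lay above both Ki67-negative ones. The retinoblastoma family genes Rb1 (308.3, 487.5, 258.6 and 426.6; -0.20, SE 0.19) and Rbl2 (450.2, 429.0, 340.0 and 389.2; -0.25, SE 0.20) lay on the other side, with groups overlapping on the centred scale at both, whereas Rbl1 (132.4, 177.1, 229.1 and 271.1; 0.72, SE 0.19) was called higher with the code term.

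**Figure D4:**
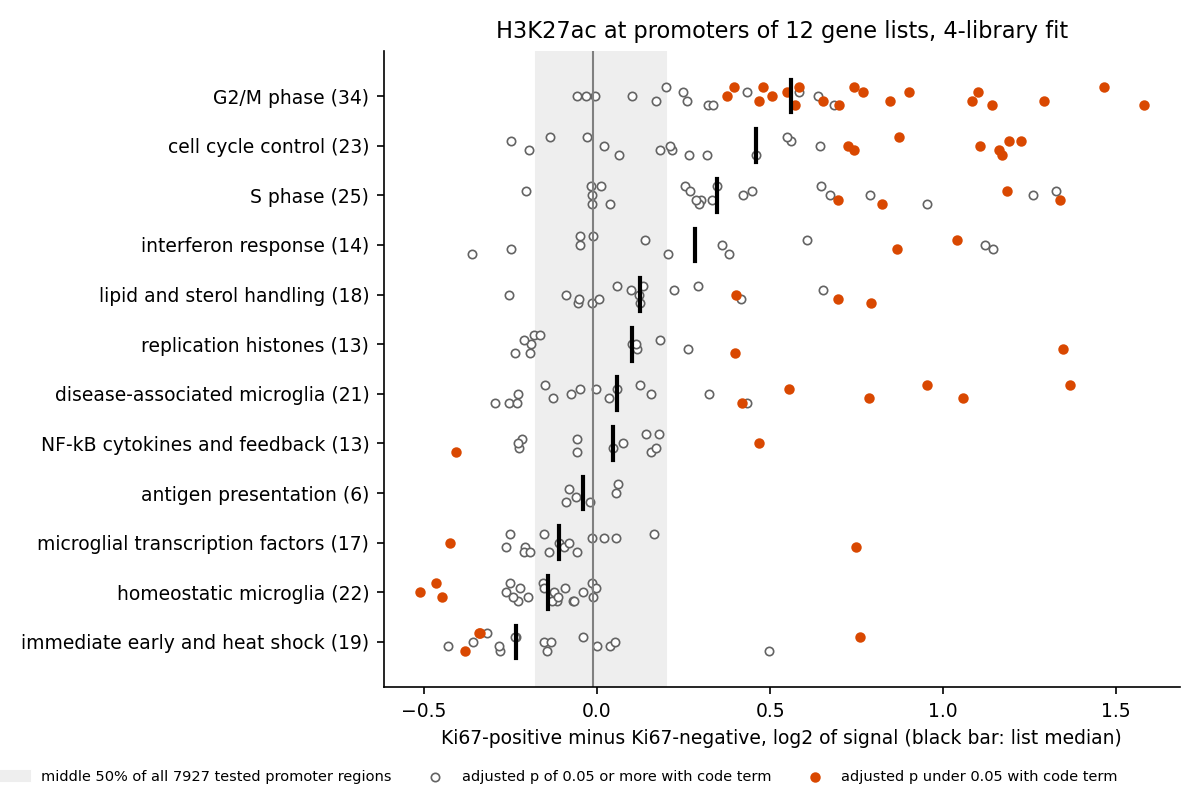
Log2 difference, Ki67-positive minus Ki67-negative (horizontal axis), for every promoter region tested in each of 12 gene lists (rows, number tested in parentheses). Black bars are list medians, the grey band holds the middle 50% of the 7927 promoter regions, and filled points have an adjusted p under 0.05 with the header code as a term. The G2/M list has the highest median (0.56) and 20 filled points, and the immediate early list the lowest (-0.23).

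Sequence matches in the 300 bases around each start (250 before and 50 after) were counted for the RefSeq promoters that matched 15982 of 20999 genes. Among promoters in tested regions (7088 matched), 38.7% held CCAAT, 13% the CHR and 4.61% an E2F match. The shares were 44.2%, 25.4% and 11.2% among the 240 matched promoters called higher with the code term, and 34.0%, 10.8% and 2.07% among the 241 called lower. Of 48 matched G2/M promoters, 38 held CCAAT, 35 the CHR and 30 both, while only 2 held an E2F match. Of 31 S phase promoters 22 held CCAAT, 5 the CHR and 11 an E2F match. Among the 61 matched positive-only promoters 29.5% held the CHR and 3.28% an E2F match, against 16.9% and 3.07% of all 15982 promoters.

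At promoters of homeostatic microglial genes, the genes that mark the resting state, the signal was high in all libraries. The 22 promoters had a median level of 1095 tags, and all were below 0 with a median log2 difference of -0.14, but the median turned to 0.03 with level-dependent scaling by cyclic loess (14 of 22 above 0) and to 0.037 without Ki67-negative 1; it was -0.35 without Ki67-negative 2, -0.24 without Ki67-positive 1 and -0.069 without Ki67-positive 2. With the code term 3 were called lower and 0 higher, among them Cst3, the protease inhibitor cystatin C (1307.2, 1452.9, 930.8 and 970.3; -0.51, SE 0.21) and Entpd1, an ectonucleotidase (949.9, 1269.7, 796.3 and 768.9; -0.46, SE 0.20). Both Ki67-positive libraries lay below both Ki67-negative ones at these genes. Of the 1786 promoter regions in the strongest of 5 signal classes, 178 were called lower with the code term and 38 higher. Of the 22 homeostatic promoters, 10 exceeded the promoter median of their own class. P2ry12, the purinergic receptor of resting microglia, held 2414.6, 2616.6, 2000.2 and 2221.1, Tmem119 925.0, 1014.9, 806.8 and 989.3, and Csf1r, the receptor for the survival factor of microglia, 1755.5, 1691.1, 1505.9 and 1620.0. Those differences were smaller than their SEs. Of 17 promoters of microglial transcription factors, 1 was called higher and 1 lower with the code term, and the median of -0.11 was 0.04 with cyclic loess, -0.044 without Ki67-negative 1 and -0.073 without Ki67-positive 2. Bhlhe40 held 259.3, 464.3, 458.2 and 719.3 (0.75, SE 0.20), Mef2a 1243.8, 1292.9, 924.3 and 932.3 (-0.42, SE 0.22), and Spi1, which encodes PU.1, 1155.3, 1281.3, 1049.0 and 1125.3.

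Genes of the disease-associated state, which microglia adopt around damaged tissue, differed among themselves. The median of 21 promoters was 0.06, with 12 above 0, and it was -0.049 without Ki67-negative 2, 0.094 without Ki67-negative 1 and 0.14 without Ki67-positive 2. With cyclic loess the median was 0.21, with 17 above 0. With the code term 6 were called higher (Lpl, Cst7, Clec7a, Csf1, Igf1 and Ch25h) and 0 lower. Ch25h, an enzyme that makes the oxysterol 25-hydroxycholesterol, held 124.4, 374.5, 416.2 and 723.0 (1.37, SE 0.35), and Clec7a, a receptor for fungal glucan, 134.9, 335.5, 385.3 and 494.1 (1.06, SE 0.28). Cst7, the protease inhibitor cystatin F, held 112.4, 225.1, 217.9 and 422.9 (0.95, SE 0.27), and Igf1, a growth factor gene, 205.4, 364.4, 467.4 and 460.9 (0.79, SE 0.21). In Cst7 the first Ki67-positive library did not exceed the second Ki67-negative one as deposited. Apoe, the apolipoprotein, held 352.3, 607.1, 562.6 and 671.3 (0.43, SE 0.18). Its adjusted p was 0.292 by limma and 0.066 with the code term. Trem2 (1076.9, 1181.4, 1041.8 and 1237.7) and Cd9 (1288.2, 1460.0, 1384.4 and 1420.1) overlapped between groups. At Itgax (362.8, 531.9, 322.3 and 407.1; -0.25, SE 0.16) and Timp2 (350.8, 563.2, 282.3 and 448.8; -0.29, SE 0.18) the difference went the other way.

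Lipid and interferon genes were likewise mixed in the 4-library fit. With cyclic loess the lipid and sterol median was 0.18, with 17 of 18 above 0. The interferon response median was then 0.30, with 11 of 14 above 0. Of 18 promoters of lipid and sterol handling, 13 were above 0 with a median of 0.12 (0.27 without Ki67-negative 2 and 0.29 without Ki67-positive 1), and 3 were called higher with the code term and 0 lower: Scarb1, a receptor for high-density lipoprotein (147.4, 233.2, 266.5 and 374.9; 0.79, SE 0.18), Plin2, the coat protein of lipid droplets (420.2, 620.7, 825.2 and 801.5; 0.69, SE 0.19), and Scd2, a fatty acid desaturase (308.3, 470.8, 407.0 and 602.7; 0.40, SE 0.17). The promoters of the cholesterol exporters Abca1 (847.5, 822.1, 808.7 and 817.4) and Abcg1 (1109.8, 1265.2, 1090.4 and 1251.9) overlapped between groups, and so, as deposited, did Scd2. Of 14 interferon response promoters 9 were above 0, with a median of 0.28 (0.044 without Ki67-negative 1, 0.15 without Ki67-positive 2 and 0.48 without Ki67-negative 2), and 2 were called higher with the code term, Irf7 (61.0, 174.6, 174.0 and 253.1; 1.04, SE 0.35) and Zbp1 (127.4, 217.0, 239.6 and 372.8; 0.87, SE 0.21), and 0 lower. As deposited the groups overlapped at Irf7 and not at Zbp1. Isg15 held 470.7, 711.6, 502.8 and 602.2 with overlapping groups. Ki67-negative 1 was the lowest of the 4 libraries at Irf7, Zbp1, Scarb1, Ch25h, Clec7a and Cst7. This was not particular to these lists. Ki67-negative 1 was also lowest at the cell cycle promoters of Cdk1, Hjurp, Aurkb, Gmnn, E2f1, E2f2 and Cdkn1a, but not at Pcna, Slbp, Rb1 or Rbl2.

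Immediate early and heat shock promoters lay lowest, at a median of -0.23 with 5 of 19 above 0, but with cyclic loess the median was -0.02 with 9 above 0, and it was -0.088 without Ki67-negative 1 and -0.080 without Ki67-positive 2. With the code term Jund, Ier5 and Klf6 were called lower and Klf2 higher, beside 178 lower and 38 higher of the 1786 promoters in the strongest signal class. Klf6 held 1640.0, 1694.1, 1201.3 and 1315.2 (-0.38, SE 0.23) and Klf2 162.4, 207.4, 219.3 and 427.1 (0.76, SE 0.22). In the NF-kB list, with a median of 0.05 over 13 promoters (-0.057 without Ki67-negative 2, -0.16 without Ki67-positive 1 and 0.075 without Ki67-negative 1), the 2 genes called with the code term went in opposite directions: Tnf held 509.7, 571.8, 678.8 and 793.6 (0.47, SE 0.17) and Il1b 544.7, 583.9, 378.8 and 459.8 (-0.41, SE 0.17). Both encode inflammatory cytokines. With cyclic loess the NF-kB median was 0.14, with 9 above 0. Of 6 antigen presentation promoters none was called with the code term, and their median of -0.04 was 0.09 with cyclic loess and between -0.064 and 0.0019 with any 1 library left out. Among 13 promoter regions of replication histones, 7 were above 0 with a median of 0.10 (0.22 and 0.20 without replicate 1 of Ki67-negative and replicate 2 of Ki67-positive cells, and -0.074 and -0.10 without the other 2 libraries), and 2 were called higher with the code term. Hist1h1b, a linker histone gene, held 98.4, 194.8, 327.6 and 368.6 (1.35, SE 0.23). The other, 274.8, 283.1, 365.0 and 358.1 tags, spans Hist1h2ab and Hist1h3b, and histone genes are near-identical copies whose reads the mapping may have divided. With cyclic loess the histone median was 0.23, again with 7 above 0.

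The difference moved with the level of the signal, which bears on each of these lists. All 20323 regions were divided by mean log2 signal into 5 level classes of equal size. Promoter regions in the weakest class had a median log2 difference of 0.23, followed by 0.13, 0.03 and -0.05, and those in the strongest had -0.14. Regions away from promoters went from -0.00 to -0.17. The 25 strongest regions were all below 0, with a median of -0.23, and 13 of them were at promoters. Junb, an immediate early transcription factor gene, was strongest at 4682.7, 5021.3, 3963.6 and 4143.8, followed by Inpp5d, a lipid phosphatase gene of myeloid cells, at 3958.2, 3501.3, 2640.9 and 3083.9. The share of tags in called regions was lower in each Ki67-positive library than in the Ki67-negative library of the same code. Level-dependent scaling drew the promoter medians of the 5 levels to between 0.00 and 0.16. Of the 34 G2/M promoters, 33 exceeded the median of the promoters in their own level class, and with level-dependent scaling their median was 0.58 with 33 above 0.

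**Figure D5:**
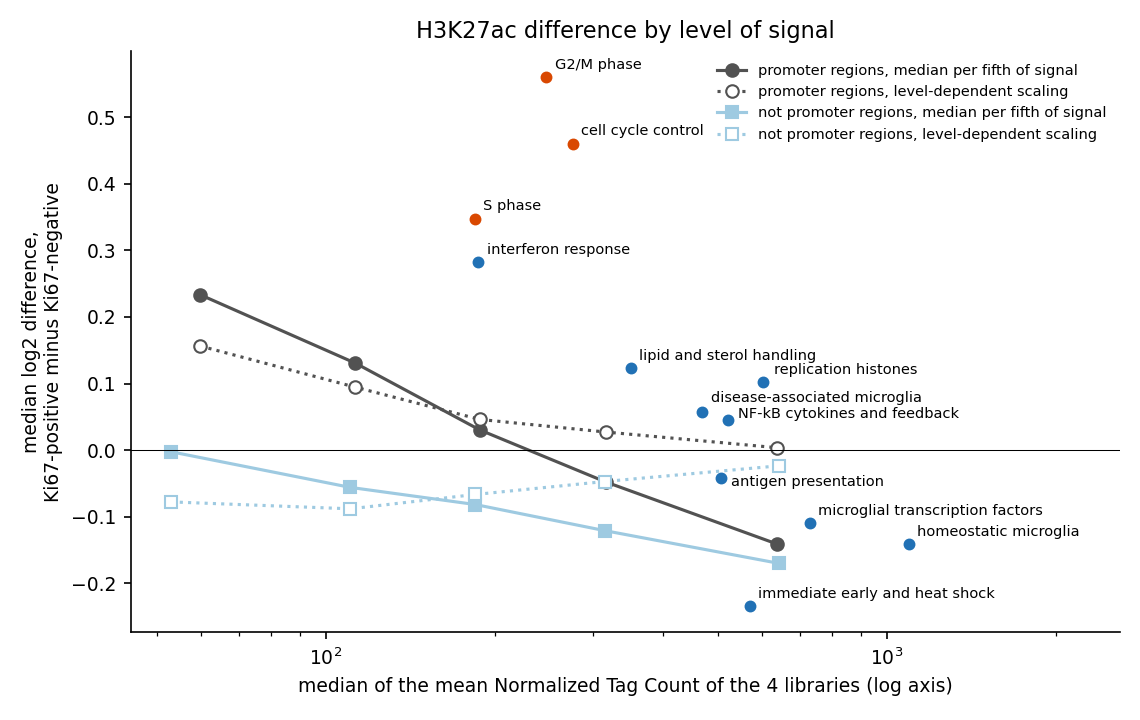
Median log2 difference, Ki67-positive minus Ki67-negative (vertical axis), against the median signal of each of 5 level classes (horizontal log axis), for promoter and other regions, with solid lines for the fit as reported, dotted lines for level-dependent scaling and points for the gene lists. Promoter medians go from 0.23 in the weakest class to -0.14 in the strongest, and the G2/M list stands above that line.

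The same contrast at PND8 asked which differences depended on the context, since the 2 contrasts share no library (replicates 1 of both contexts share a header code). In a fit of all 8 libraries over the 18138 regions that each of them called, 168 regions were higher and 153 lower in Ki67-positive cells on cuprizone (0.926% and 0.844%), and 54 and 104 at PND8 (0.298% and 0.573%). Higher in both were 19 regions, or 11.3% of the cuprizone and 35.2% of the PND8 set, and lower in both were 8, or 5.23% and 7.69%. The correlation of the 2 differences was 0.39 across these regions, which share their libraries. The G2/M promoters had medians of 0.59 on cuprizone and 0.69 at PND8, the S phase promoters 0.38 and 0.29, the regulators 0.49 and 0.38, and the homeostatic promoters -0.11 and 0.04.

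The 19 shared regions, named here after their values had been seen, included promoters of Kif18b, a mitotic kinesin (log2 differences of 1.91 on cuprizone and 1.65 at PND8), Fbxo48 (1.84 and 1.06), E2f2 (1.26 and 1.35), Cdkn2a, Cep55, Depdc1b, H2afx and the histone genes Hist1h2an and Hist1h4f. E2f2 held 95.9 and 130.6 tags in Ki67-negative and 283.7 and 339.8 in Ki67-positive cells at PND8, and 23.2 and 56.7 in adults. Outside promoters, a region 6120 bp from Cdkn1b, the gene of the inhibitor p27, was higher in both. The 19 also held the promoters of Pim1 and Tagln2 and regions whose nearest starts were those of Nes and Ccl2. Among the 8 lower in both was a region 18649 bp from the start of Ncaph (log2 differences of -1.57 on cuprizone and -1.42 at PND8). These were likewise named after their values had been seen.

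A difference between the contexts passed the test at 5 regions, 4 with a larger value on cuprizone (0.0221%) and 1 with a smaller one (0.00551%), all at an adjusted p of 0.029 (limma), and 1371 had an unadjusted p under 0.05. At the promoter of Gramd1b, a sterol transfer protein gene, Ki67-positive cells held 348.6 and 515.7 against 247.9 and 347.7 on cuprizone, but 86.7 and 106.8 against 303.6 and 233.6 at PND8. At the Ifi207 promoter, an interferon-inducible gene, they held 337.4 and 330.6 against 198.9 and 307.3 on cuprizone and 14.7 and 29.3 against 89.3 and 98.4 at PND8. A region 67182 bp from Abca1 held 251.4 and 334.9 against 154.9 and 197.3, and 63.2 and 80.5 against 148.0 and 145.3. In these 3 the groups were in opposite order in the 2 contexts.

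The other 2 were called in both contexts in opposite directions. A region 79693 bp from Tmem163, a zinc transporter gene, held 514.7 and 575.9 in Ki67-positive against 240.4 and 369.9 in Ki67-negative cells on cuprizone, and 39.2 and 49.1 against 90.8 and 106.2 at PND8. Near Efcab6, Ki67-positive cells held 69.6 and 97.0 against 227.4 and 226.1 on cuprizone, and 87.2 and 162.5 against 45.4 and 41.4 at PND8. None of the 5 passed with values as deposited and no centring, and leaving out a library gave from 0 to 55 calls. The count was 0 without replicate 1 of PND8 Ki67-negative, PND8 Ki67-positive, cuprizone Ki67-negative or cuprizone Ki67-positive cells, 1 without PND8 Ki67-negative 2, 10 without cuprizone Ki67-positive 2, 23 without PND8 Ki67-positive 2 and 55 without cuprizone Ki67-negative 2.

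RNA of Ki67-sorted microglia from the other contexts gave a readout independent of the cuprizone lists. Among 12230 genes tested, edgeR called 336 higher and 385 lower at PND8 (2.75% and 3.15%) and 229 and 106 in repopulation (1.87% and 0.867%), or 721 and 335 in all. At PND8 the total was 213 without Ki67-positive 2, 440 without Ki67-positive 1 and 1117 without Ki67-negative 1. In repopulation it was 103 without Ki67-negative 1 and 121 without Ki67-positive 2. Of 8740 genes with a tested promoter region, 226 had higher RNA at PND8, and their promoters on cuprizone had a median of 0.32 with 177 above 0. The 139 with higher RNA in repopulation had a median of 0.41 with 118 above 0. The promoters of genes with lower RNA sat near the rest, at -0.03 (238 genes) and -0.09 (69 genes), beside -0.01 for all 8740.

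Read from the chromatin side, 298 of these genes had a promoter called higher with the code term. Their RNA was higher at PND8 in 18.1% and in repopulation in 14.8%, against 2.59% and 1.59% of all 8740. Of the 301 with a promoter called lower, RNA was lower in 6.98% and 0.997%, against 2.72% and 0.789%. Those shares were 21 and 3 genes. Among the 298 with a promoter called higher, RNA was lower for 19 genes at PND8 and 5 in repopulation. Genes with lower RNA were thus about as many among promoters called higher as among those called lower. Across all 8740 genes the correlation of the promoter difference with the RNA difference was 0.17 at PND8 and 0.18 in repopulation.

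RNA lay on the same side as promoter acetylation for the mitotic genes and on the other side for many DNA synthesis genes. RNA of 54 of 56 G2/M genes rose at PND8 and of 50 in repopulation, and 0 fell. Cdc25b RNA had log2 differences of 3.63 and 2.99, Ckap2 2.14 and 2.10, Mki67 1.95 and 1.34 and Cdk1 0.78 and 0.85 (edgeR, adjusted p from 2.73e-07 to 0.0079). RNA of 28 of 43 S phase genes fell at PND8 and of 6 in repopulation, and 0 rose, whereas 21 of the 25 S phase promoters tested were above 0 on cuprizone and their median at PND8 itself was 0.29. E2f2 showed both within 1 gene: its promoter had log2 differences of 1.23 on cuprizone and 1.35 at PND8, and its RNA fell by 0.94 at PND8 (adjusted p 0.0028) with -0.34 in repopulation (adjusted p 0.292). Cdkn1a RNA had log2 differences of 0.25 (adjusted p 0.351) and -0.28 (adjusted p 0.362). The RNA cells were sorted by the reporter and the chromatin cells by the antibody stain, and the part of that difference was not tested.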

How the data were processed

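The 4 cuprizone H3K27ac region lists were made by the authors with HOMER findPeaks, per the file headers: regions from windows of 500 bp joined within 1000 bp, each library called alone against its own input at 4-fold or more over it, with a local filter of 10000 bp and a false discovery rate of 0.001. The submitters' processing notes name Bowtie2 2.3.4.1, STAR 2.7.0f, HOMER 4.11 and DESeq2, and the build mm10. In each list the deposited signal is the Normalized Tag Count, scaled to 10000000 tags per library. The deposited ratio of tags over input (fold) was used only as a filter in an alternative. The deposited findPeaks score was used only to cut the lists to equal length in another alternative. RNA counts per gene were deposited by the authors as raw counts.

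Lists were merged at 1 bp of overlap and signal was summed per region. A region entered the test when all 4 libraries called it, because a region that is not called has an unknown value and not 0. The test was limma 3.58.1 (trend) on log2(signal + 1), each library centred on its median, two-sided, with Benjamini-Hochberg adjustment over 20323 regions. An exact permutation of 2 against 2 cannot go below p = 0.333. The fit with the header code as a term keeps 1 residual degree of freedom besides the spread shared across regions. Groups were said not to overlap on the centred scale unless values as deposited are named. The RNA test was edgeR 4.0.16 (quasi-likelihood, TMM, filterByExpr, all 10 libraries). DESeq2 1.42.0, cyclic loess scaling, other filters and scalings, a fit of 8 or 12 libraries and leaving out each library were alternatives; cyclic loess and the 8-library fit were added after the data had been seen. Scripts were tested on simulated data. Promoter and motif matches used RefSeq on GRCm38.p6.

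Named regions are a fixed panel of 12 promoters, the 5 regions with the lowest p in each direction, the 5 strongest regions called in 1 group only, the 2 largest differences in each direction of each gene list, and further list members called with the code term. A difference smaller than its SE is given as library values only. The members and lists were chosen with earlier results of these data known. H3K4me3, Rpb2 and ATAC lists were used only for overlap. Some single genes of the lists are not reported here by name.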

Additional observations from a re-analysis of the deposited data

Results flagged for a closer look

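The difference between Ki67-positive and Ki67-negative cells itself differed between cuprizone and PND8 at 5 regions, tested as an interaction over 8 libraries (limma, all at an adjusted p of 0.0292). The difference was larger on cuprizone by a log2 value of 2.16 (SE 0.26) at the Gramd1b promoter, 2.18 (SE 0.28) at the region near Tmem163, 2.72 (SE 0.37) at the Ifi207 promoter and 1.93 (SE 0.27) at the region nearest Abca1. It was smaller by a log2 value of -2.72 (SE 0.38) near Efcab6. At all 5 the direction on cuprizone was opposite to that at PND8 in the means of the groups.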

How the results depend on the processing

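Counts of called regions depended on the fit more than on the scaling. Against 0 in the 4-library fit, the signal comparison called 116 with no filter (uncalled regions set to the list minimum), 2692 with the replicate block, 2549 with cyclic loess and the replicate block, 597 by DESeq2, 321 with cuprizone and PND8 in 1 fit, 1 with all 12 libraries, and 205 to 2087 with a library left out. The replicate block is the same fit as the header code term. The replicate numbers coincide with the header code, but with 2 pairs and no label that says what a number marks they may be names only, and the deviations of same-numbered libraries had a correlation of 0.43. The interaction with PND8 called 5, against 0 as deposited, 169 with the replicate block and 0 to 55 with a library left out, and the as-deposited scaling moved its median over all regions from -0.04 to -0.21. RNA calls at PND8 (721) were 1290 with no filter, 1628 with the replicate block and 213 to 1117 with a library left out. In repopulation (335) they were 736, 995 and 103 to 299. Positive-only regions (538) numbered 240 at 8-fold or more over input and 673 to 3056 with a library left out. Negative-only regions (619) numbered 178 and 837 to 2791. With the lists cut to equal length by the findPeaks score, positive-only regions numbered 758 and negative-only regions 772.

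The S phase median of 0.35 was 0.32 as deposited, 0.38 with cyclic loess and 0.28 to 0.54 with a library left out. With a library left out the G2/M median was 0.51 to 0.63 and that of cell cycle control 0.33 to 0.59. The homeostatic median of -0.14 was 0.029 with cyclic loess and -0.35 to 0.037 with a library left out. Other medians that changed sign were, with a library left out, disease-associated (-0.049 without Ki67-negative 2 to 0.14), NF-kB (-0.16 without Ki67-positive 1 to 0.075), antigen presentation (-0.064 to 0.0019 without Ki67-positive 2) and histones (-0.10 without Ki67-positive 1 to 0.22), and with cyclic loess antigen presentation (0.089) and transcription factors (0.039). Signal per covered kb reversed 4 promoters, Usp18 (-0.097), Egr1 (-0.025), Fosb (0.28) and Hist1h2ab (-0.26), and the other 48 of 52 named regions compared kept their direction in it. The cause of these changes was not tested.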
